A study of Mus musculus with 12 samples.

Results

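The C/EBP transcription factor genes Cebpa, Cebpb, Cebpd, Cebpg and Cebpz were examined in mLTC-1 cells, a mouse line of the testosterone-making Leydig cells of the testis. The 5 genes were chosen by symbol, once earlier values of these MSNBA and control libraries were known, from a table of 26214 gene symbols, and all 5 were found in it. Their differences between the groups are therefore given as a description and support no claim of their own. Every library held polyA RNA of mLTC-1 cells grown in RPMI medium with 10% fetal bovine serum. Of the 12 libraries, 6 came from cells given the DMSO vehicle (0 µM, controls 1 to 6) and 6 from cells given 100 µM MSNBA (MSNBA 1 to 6), each for 24 h. MSNBA is a benzodioxol amine that carries a nitrophenyl ring with a methylsulfonyl group, and the title of the series concerns blocking Glut5, which takes up fructose. All cells are of 1 line. Nothing in the labels ties replicates to separate cultures, so the p-values speak to the spread among these samples alone, and that spread may be technical.

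C/EBP proteins are basic leucine zipper (bZIP) factors: a basic region grips DNA, and the zipper joins a pair of such proteins into a dimer. C/EBPα, the product of Cebpa, is best known for driving the maturation of fat, liver and myeloid cells and for restraining cell division. C/EBPβ and C/EBPδ respond to hormones, cytokines and stress, and in Leydig cells C/EBPβ is known as an activator of Star, the gene for the protein that carries cholesterol into mitochondria. C/EBPγ lacks an activation domain of its own and works through its partners, among them ATF4, the main factor of the integrated stress response. Cebpz shares the family name but encodes a CCAAT-binding protein without a bZIP fold, whose relatives act in the nucleolus in ribosome assembly. It is not the same gene as Ddit3, which encodes the bZIP protein CHOP that is also called C/EBPζ.

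RefSeq promoters of the mm10 assembly (GRCm38.p6), 250 bases before to 50 bases after the annotated start, were matched for 3 of the 5 genes, and are shown because the region around the start is where family members and their partners are known to act on each other's genes. Capitals mark the matches of the motifs searched, each on both strands. Positions are distances from the first base of the gene, which counts as 0.

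Cebpa: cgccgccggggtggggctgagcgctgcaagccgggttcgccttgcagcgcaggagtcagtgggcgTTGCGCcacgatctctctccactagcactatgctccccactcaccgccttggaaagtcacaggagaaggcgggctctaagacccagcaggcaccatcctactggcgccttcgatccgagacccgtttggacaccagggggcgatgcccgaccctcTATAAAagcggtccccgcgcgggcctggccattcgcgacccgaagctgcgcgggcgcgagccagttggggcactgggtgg

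Cebpb: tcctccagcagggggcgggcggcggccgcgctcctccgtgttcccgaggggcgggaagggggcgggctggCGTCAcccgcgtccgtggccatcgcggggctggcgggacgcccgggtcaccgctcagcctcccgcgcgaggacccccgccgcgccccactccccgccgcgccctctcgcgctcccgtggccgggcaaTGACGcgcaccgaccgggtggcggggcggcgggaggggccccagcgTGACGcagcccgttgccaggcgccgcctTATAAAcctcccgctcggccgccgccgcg

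Cebpg: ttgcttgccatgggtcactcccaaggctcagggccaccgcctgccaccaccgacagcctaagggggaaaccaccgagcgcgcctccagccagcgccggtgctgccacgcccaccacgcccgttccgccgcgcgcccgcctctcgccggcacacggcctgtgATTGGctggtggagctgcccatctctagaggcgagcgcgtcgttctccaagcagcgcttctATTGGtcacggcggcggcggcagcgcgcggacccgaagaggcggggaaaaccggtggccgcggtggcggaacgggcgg

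The Cebpa stretch lies at chr7:35119043-35119342 on the plus strand, that of Cebpb at chr2:167688665-167688964 on the plus strand, and that of Cebpg at chr7:35056517-35056816 on the minus strand. Their GC contents were 67.3%, 80.7% and 71.7%, against a median of 52.7% over 32851 promoters. In Cebpa the capitals mark TATAAA, the TATA box, from -30 to -25 and TTGCGC, a C/EBP half-site, from -185 to -180. In Cebpb they mark TATAAA from 21 to 26 and TGACG, a cAMP response half-site, at -53, -7 and, on the other strand, -180. In Cebpg they mark the CCAAT box on the minus strand at -89 and -28, read as ATTGG on the strand printed, and no TATAAA was found. TATAAA was held by 13.6% of all promoters, CCAAT by 37.4%, TTGCGC by 6.49% and TGACG by 20.8%. The motifs TTGCGC and TGACG were added to the search after these stretches had been read, and TGACG is part of the longer cAMP motifs. None of the 3 stretches held TGATGCAA or TGATGNAA (C/EBP-ATF elements, the second containing the first, in 0.895% and 3.97% of promoters), TTGCGCAA or TTGCNNAA (C/EBP palindromes, likewise nested, in 0.183% and 10.8%), TGACGTCA (1.79%) or TGACGCAA (0.49%). No factor's binding was measured here, and a match is a description of letters only.

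Cebpa is a gene of 1 exon on chromosome 7 from 35119293 to 35121928. Cebpg, with 2 exons, lies 62726 bases away from it on the opposite strand (35046422 to 35056566). Cebpb has 1 exon on chromosome 2 (167688915 to 167690432) and Cebpd 1 exon on chromosome 16 (15887286 to 15889545). Cebpz has 16 exons on chromosome 17 (78919003 to 78937070), and its GENCODE M21 model overlaps that of Cebpzos on the opposite strand by 1301 bases. GENCODE models on the opposite strand also overlap Cebpa (Gm45091, 313 bases), Cebpb (Tmem189, 908 bases), Cebpd (Spidr, 1808 bases) and Cebpg (Gm45095, 353 bases). These overlaps are of whole gene spans, introns included, and each covers only part of the C/EBP gene. How reads in the shared stretches were counted is not known, since the strand setting of the counting is not given in the sources used here. By RefSeq positions, Tmem189 lies 27371 bases before Cebpb. Cebpd ends there at 15889545, short of its GENCODE end at 15891031. Models on the same strand as Cebpg, Gm44836 (1140 bases) and Gm45094 (617 bases), also overlap it, and strand would not separate their reads. Summed over each group, Cebpzos had 17 control and 47 MSNBA counts, Tmem189 had 10 and 28, and Spidr had 4 and 25.

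The libraries were shallow. Total counts ran from 59113 to 234225 in controls and from 94179 to 657251 in MSNBA, 2.14-fold higher in MSNBA by geometric mean. All 7 Leydig cell markers were detected well enough to be tested, with a summed level of 7490 to 10905 CPM (the count scaled to a library of 1000000 counts) in controls and 7569 to 9388 CPM in MSNBA. Of the C/EBP genes, only Cebpa passed the filter on low counts that left 2614 genes for the test. Cebpb, Cebpg, Cebpz and Cebpd averaged 12.8, 13.3, 7.83 and 2.58 counts per library, against 70 for Cebpa. These 4 genes are therefore given as counts and pooled levels with exact 95% Poisson intervals and no test. Intervals and floors cover counting error only.

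Cebpa was the most abundant of the 5 genes, both in CPM and per length. Per kilobase of transcript, its level over the full library total was 163 to 218 CPM per kb in controls (median 171) and 108 to 145 CPM per kb in MSNBA (median 126). Cebpb followed with 36.6 to 77.7 CPM per kb in controls and 22.1 to 44.5 in MSNBA. Cebpg measured 9.97 to 16.5 CPM per kb in controls and 8.46 to 20.3 in MSNBA. Cebpz measured 4.16 to 14.6 and 2.71 to 13.5 CPM per kb, and Cebpd 0 to 6.69 and 1.56 to 9.31 CPM per kb. In controls, the ranges of Cebpa, Cebpb and Cebpg lay apart from each other, whereas those of Cebpg and Cebpz overlapped and so did those of Cebpz and Cebpd. The order of Cebpb and Cebpg rests on the division by length: in CPM their control ranges overlapped, at 55.0 to 117 and 47.0 to 77.9, and the pooled MSNBA level of Cebpb, 58.8 CPM, was below that of Cebpg, 74.5 CPM. Transcript lengths were those of the longest GENCODE model matched to a RefSeq transcript, from 1504 bases for Cebpb to 4709 bases for Cebpg. The scale assumes that reads fall along the whole transcript, which the labels do not state.

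In Cebpa, the MSNBA libraries lay below the controls without overlap. Normalized CPM, which are scaled by TMM factors to the counts of the tested genes, were 545, 728, 561, 673, 585 and 549 in controls 1 to 6. In MSNBA 1 to 6 they were 405, 413, 370, 461, 475 and 365. The lowest control, control 1, was thus above the highest MSNBA library, MSNBA 5, and the highest values of all were those of controls 2 and 4. Group means were 607 ± 76.0 and 415 ± 45.4 CPM (SD, n = 6 per group). The log2 fold change was -0.54 (SE 0.14), or 0.686-fold with a 95% interval from 0.565-fold to 0.833-fold. By the edgeR quasi-likelihood test with Benjamini-Hochberg adjustment over 2614 genes Cebpa did not pass the threshold of 0.05 (adjusted p = 0.101). Only 2 genes passed, 0.0765% of those tested, both lower in MSNBA. Groups without overlap and lower in MSNBA were found in 11 of the 2614 genes (0.421%), Cebpa among them, and the gene ranked 7 by p-value. Since the gene was chosen with this comparison known, nothing is read from its place among them. Less RNA per cell and fewer cells with the RNA cannot be told apart in bulk libraries.

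**Figure D1:**
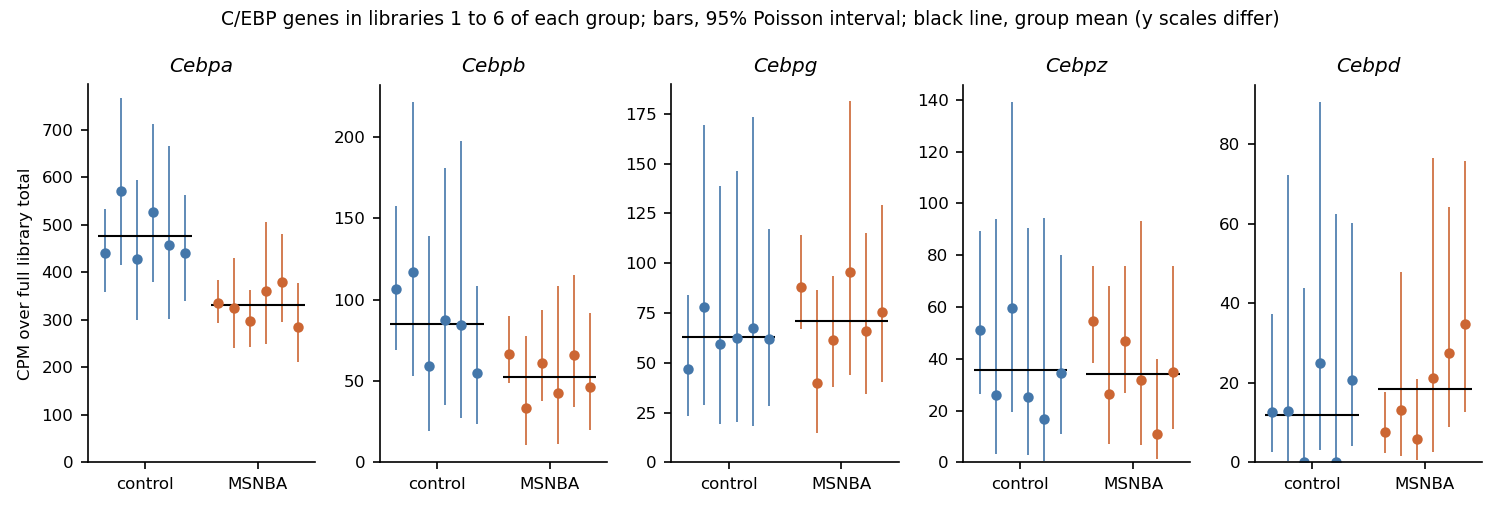
Level of each C/EBP gene in CPM over the full library total, in the 6 control and 6 MSNBA libraries in the order of their replicate numbers, with exact 95% Poisson intervals as bars and the group mean as a black line. The y scales differ between panels: Cebpa runs from 285 to 571 CPM with no overlap between the groups' points, and the groups overlap in each of the other 4 genes.

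Library depth moved with the groups, so the level of Cebpa was set beside it. Counts of Cebpa ran from 27 in control 5, the shallowest library, to 221 in MSNBA 1, the deepest. MSNBA 4, with a total of 94179, was shallower than controls 1 and 6, with totals of 234225 and 145516, and measured 461 CPM against their 545 and 549. MSNBA 2, 5 and 6, with totals from 150623 to 181614, were also shallower than control 1 and lay below it. Within controls, however, the deepest libraries, 1 and 6, had the lowest values, and the shallower controls 2 to 5 measured 561 to 728 CPM. In MSNBA the highest value, 475 CPM, was in MSNBA 5 and the lowest, 365 CPM, in MSNBA 6, with totals of 181614 and 172131. The parts of depth and group cannot be fully told apart. With the log2 total as a term of the model, the log2 fold change was -0.44 (SE 0.16, adjusted p = 0.423 by edgeR), and 0 genes passed. Leaving out controls 2 and 4, the libraries with the highest Cebpa, gave -0.44 (SE 0.15, adjusted p = 0.292). Across all other settings and left-out libraries the value ran from -0.59 to -0.39, below 0 each time.

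**Figure D2:**
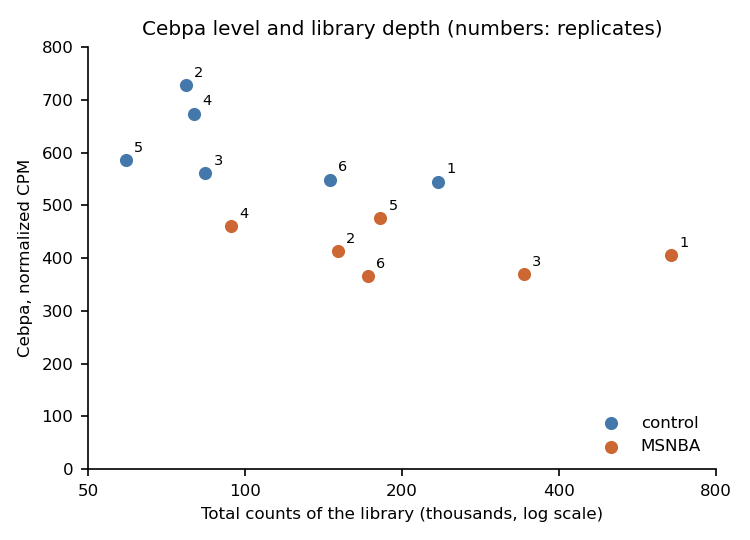
Normalized CPM of Cebpa against the total counts of each library on a log scale, with replicate numbers beside the points. Controls lie between 545 and 728 CPM and MSNBA libraries between 365 and 475 CPM, over depth ranges that overlap from 94179 to 234225 counts.

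**Figure D3:**
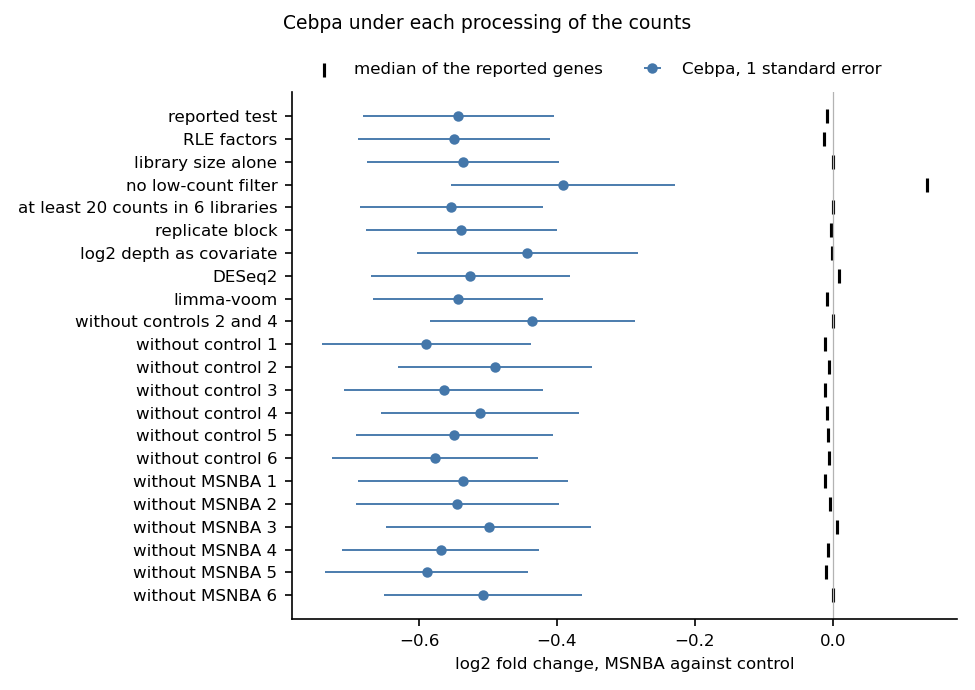
Log2 fold change of Cebpa, MSNBA against control, under each processing of the counts and with each library left out, with 1 standard error as bars. Black ticks mark the median of the 2614 genes of the reported test under the same setting, which is 0.14 without the low-count filter and within 0.02 of 0 elsewhere; Cebpa lies between -0.59 and -0.39.

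Cebpb had 25, 9, 5, 7, 5 and 8 counts in controls 1 to 6 and 44, 5, 21, 4, 12 and 8 in MSNBA 1 to 6. Over full library totals these were 55.0 to 117 CPM in controls (median 86.2) and 33.2 to 66.9 CPM in MSNBA (median 53.9). The groups overlapped, with MSNBA 2, 4 and 6 below all controls. Pooled over libraries, Cebpb measured 86.8 CPM (66.1 to 112) in controls and 58.8 CPM (47.5 to 72.0) in MSNBA, a ratio of 0.677 with a counting interval from 0.484 to 0.955. That interval leaves out the spread between libraries. The log2 ratio was -0.56, and it was -0.38 without control 1 and -0.71 without MSNBA 1. In a fit without the low-count filter the log2 fold change of Cebpb was -0.46 (SE 0.28, adjusted p = 0.63 by edgeR), where the median of the 2614 genes stood at 0.14.

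Cebpg had 11, 6, 5, 5, 4 and 9 counts in controls and 58, 6, 21, 9, 12 and 13 in MSNBA. Its level was 47.0 to 77.9 CPM in controls (median 62.3) and 39.8 to 95.6 CPM in MSNBA (median 70.8). MSNBA 1 and 4 lay above all controls and MSNBA 2 below them. The pooled levels were 58.9 CPM (42.0 to 80.1) and 74.5 CPM (61.7 to 89.1), a ratio of 1.27 with a counting interval from 0.877 to 1.86. No difference in Cebpg was detectable at this depth. Without MSNBA 1, which held 58 of the 119 MSNBA counts, the log2 ratio moved from 0.34 to 0.14.

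Cebpz measured 16.9 to 59.5 CPM in controls and 11 to 54.8 CPM in MSNBA, from 27 and 67 counts in all. The pooled ratio was 1.06, with an interval from 0.666 to 1.72, and its log2 value turned from 0.08 to -0.27 without MSNBA 1. Cebpd, known as an early response gene of inflammation, had 9 counts in controls and 22 in MSNBA. It had 0 counts in controls 3 and 5, where a floor of 3 counts is 35.7 and 50.8 CPM. The pooled ratio of Cebpd was 1.04 (0.46 to 2.56), and its log2 value ran from -0.24 without MSNBA 6 to 0.45 without MSNBA 1. Differences in either gene were not detectable at this depth. Cebpe, the family member of granulocytes, had 1 count in controls and 3 in MSNBA, at or below the floors of 4.41 and 1.88 CPM over the groups.

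The balance between the genes was read as shares of counts within a library, where the library total cancels. Counting error does not cancel, and any other link of the shares with depth was not tested. Transcript length does not cancel between genes, so these shares and ratios serve to set the groups side by side and not to rank the genes. Cebpa supplied 66.9% to 73.0% of the counts of the 5 genes in controls (median 71.4%) and 59.8% to 74.2% in MSNBA (median 64.2%). The highest share of all, 74.2%, was in MSNBA 2, where the exact binomial interval ran from 62.0% to 84.2%, and 4 MSNBA libraries lay below every control. Cebpa gave 6.75 to 9.36 counts for each Cebpg count in controls and 3.77 to 8.17 in MSNBA, with 5 of 6 MSNBA libraries below all controls. The control ratios rest on only 4 to 11 Cebpg counts each. Cebpa alone already separated the groups, so this ratio is not independent of that difference. For Cebpa against Cebpb the ratio was 4.12 to 8 in controls and 4.86 to 9.80 in MSNBA, and the groups overlapped. The other 4 genes summed to 169 to 234 CPM in controls and 113 to 218 CPM in MSNBA, while all 5 summed to 607 to 805 CPM in controls and 438 to 554 CPM in MSNBA. The separation of the 5-gene sum thus repeats that of Cebpa, which makes up most of it.

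**Figure D4:**
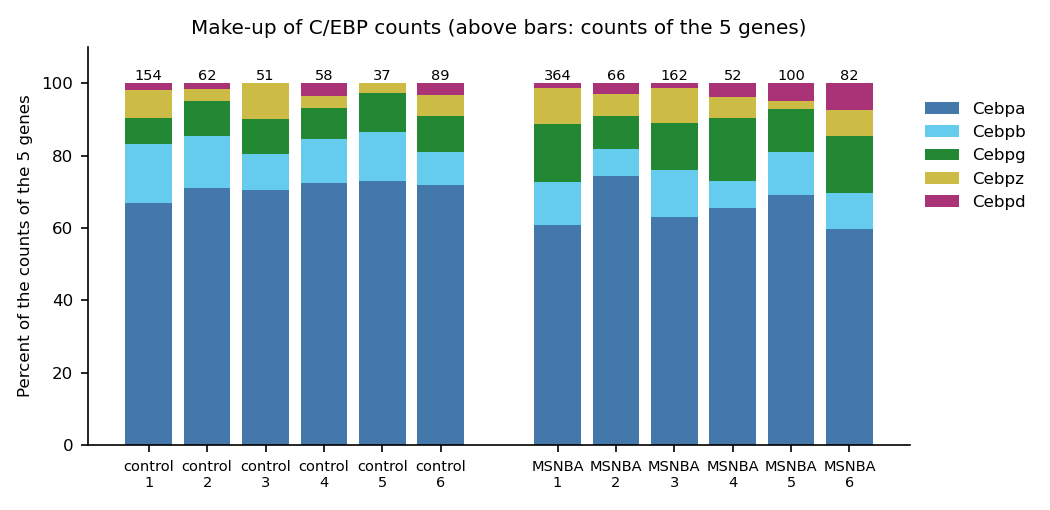
Share of each gene, in percent, in the counts of Cebpa, Cebpb, Cebpg, Cebpz and Cebpd in each library, with the number of counts of the 5 genes above each bar. Cebpa takes 66.9% to 73.0% in controls and 59.8% to 74.2% in MSNBA, from as few as 37 counts in control 5.

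Ddit3, whose protein CHOP pairs with C/EBP proteins and blocks many of their sites, lay above the others per length, at 468 to 2538 CPM per kb in controls. That gap rests on the division by length. In CPM over full library totals Ddit3 ran from 417 to 2259 in controls, a range that overlapped the 429 to 571 CPM of Cebpa. Between the groups the normalized CPM of Ddit3 differed by 0.31 on the log2 scale (SE 0.41, edgeR adjusted p = 0.866). Ddit3 was highest in control 2 at 2879 CPM and also high in control 4 at 1571 CPM, the 2 controls in which Cebpa was highest. Among MSNBA libraries only the ends of the order were reversed. Ddit3 was highest in MSNBA 6 at 2371 CPM, where Cebpa was lowest, and lowest in MSNBA 5 at 929 CPM, where Cebpa was highest. MSNBA 4 was next to highest in both, at 1599 CPM of Ddit3 and 461 CPM of Cebpa. Among 21 bZIP partners of C/EBP, 18 had counts and 3 could be tested, of which 0 passed by edgeR and 1, Atf4, had an unadjusted p under 0.05. Over all 2614 tested genes, 4.17% had such a p and were higher in MSNBA, and 4.78% had one and were lower. Normalized CPM of Atf4 ran from 203 to 401 in controls (median 294) and from 354 to 492 in MSNBA (median 449). In 4 MSNBA libraries it lay above all controls, and the log2 fold change was 0.60 (SE 0.16, adjusted p = 0.104). Atf5, a close relative of Atf4, had -0.23 (SE 0.23) and Fosl2, an AP-1 subunit, 0.16 (SE 0.26). The AP-1 genes Fos and Jun had 12 and 109 counts in all, below the filter.

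Regulators of C/EBP genes and proteins numbered 29, of which 28 were in the table and 11 were tested. None passed in either direction, at an adjusted p of 0.464 or above by edgeR, 2 had an unadjusted p under 0.05, both lower, beside 4.78% of all tested genes, and 10 of 11 log2 fold changes were below 0, beside 51.5% of all tested genes. The median was -0.22, beside -0.0082 over all tested genes, and ran from -0.27 to -0.16 with 1 library left out. Without the low-count filter it was -0.07, where the median of all the tested genes was 0.14. The 4 most abundant were Calr, a calcium-binding chaperone that can bind C/EBP messages, at -0.22 (SE 0.10), Prkaca, the catalytic subunit of the cAMP-dependent kinase, at -0.23 (SE 0.14), and the kinase genes Gsk3b at -0.30 (SE 0.16) and Mapk3 at -0.17 (SE 0.18), whose products can phosphorylate C/EBP proteins. Cop1, the ubiquitin ligase that takes C/EBPα to degradation together with Tribbles proteins, had the lowest value of the list, -0.55 (SE 0.24, adjusted p = 0.464). It was named after its value was seen. The Tribbles genes Trib1 and Trib2 had 9 and 124 counts in all, below the filter.

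Target genes were taken from lists for 3 settings. Of 7 C/EBP targets of steroidogenic cells, 4 were tested and 0 passed by edgeR, with 0 at an unadjusted p under 0.05, a median log2 fold change of -0.03 and a range from -0.23 for Hsd3b1, a steroid dehydrogenase gene, to 0.32 for Lhcgr, the luteinizing hormone receptor gene. The sign of this median depends on the setting: it was 0.12 without control 2, 0.25 without controls 2 and 4 and 0.10 with log2 depth in the model. Without the low-count filter it was 0.12, where the median of the 2614 genes of the reported test stood at 0.14. Star measured 374 to 943 CPM in controls and 420 to 842 CPM in MSNBA, and its highest controls were 2 and 4, those in which Cebpa was highest. Among MSNBA libraries only the ends of the order were reversed. Star was highest in MSNBA 6, where Cebpa was lowest, and lowest in MSNBA 5, where Cebpa was highest. MSNBA 4 was next to highest in both, at 786 CPM of Star and 461 CPM of Cebpa. The groups overlapped. Cyp11a1, the side-chain cleavage enzyme gene, had -0.21 (SE 0.11). Nr4a1, Ptgs2 and Cyp19a1 had 18, 2 and 6 counts in all.

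Of 27 targets of fat, liver and myeloid cells, 24 had counts, 4 were tested and 0 passed by edgeR, with 1 higher (Scd1) and 1 lower (Alb) at an unadjusted p under 0.05. Id2, a partner that holds helix-loop-helix factors from DNA, had -0.15 (SE 0.18), the stearoyl-CoA desaturase gene Scd1 0.40 (SE 0.17) and Orm1, an acute phase protein gene, 0.08 (SE 0.28). Alb, the serum albumin gene of liver, had -1.20 (SE 0.35, adjusted p = 0.228 by edgeR) and lay below all controls in 3 MSNBA libraries. Its counts were 8 to 22 in every library, over the whole range of depths. Alb is also a hepatocyte marker, and hepatocytes are rich in Cebpa. The 6 hepatocyte markers summed to 117 to 276 CPM in controls and 66.9 to 191 CPM in MSNBA, with Ttr at 0 and Fgb and Serpina1a at 1 count each over the 12 libraries. The sum came mostly from Alb, with 76 counts in controls and 75 in MSNBA, and Cyp2e1, with 35 and 80, whose counts were higher in the deeper group while those of Alb were not, and Apoa1 had 3 and 6. Cebpa itself measured 429 to 571 and 285 to 380 CPM on that scale, above the summed markers in each library. Of 11 macrophage markers 10 had counts and summed to 13 to 71.4 CPM in controls and 10.6 to 29.0 CPM in MSNBA, with Cd14 at 0. Of 6 adipocyte markers 5 had counts and summed to 8.54 to 67.7 and 0 to 11.6 CPM, with Fabp4 at 0. Sertoli cell markers summed to 59.5 to 103 and 52.3 to 92.9 CPM, and germ cell markers to 38.9 to 152 and 28.9 to 66.1 CPM. Each of the 6 markers of either list had at least 1 count, but Amh, Wt1 and Ddx4 had only 1 each over the 12 libraries and Rhox5 had 4. The highest counts were those of Dhh (88) and Gata1 (48) among Sertoli cell markers and Tnp1 (53) and Prm1 (26) among germ cell markers. The part of such cells or RNA in the values of Cebpa was not tested.

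Genes with ATF4-C/EBP elements, at which ATF4 binds with a C/EBP partner, numbered 26, of which 25 had counts and 16 were tested. None passed by edgeR, 13 log2 fold changes were above 0 and 3 below, and the median was 0.20, beside -0.0082 over all tested genes. The median ran from 0.14 to 0.23 with 1 library left out. It was 0.34 without controls 2 and 4. Without the low-count filter it was 0.35, where the median of the 2614 genes of the reported test stood at 0.14. Besides Ddit3 and Atf5, the most abundant were Slc3a2, an amino acid transporter subunit, at 0.16 (SE 0.11) and Nupr1, a stress-induced chromatin protein gene, at 0.46 (SE 0.32). The 3 with an unadjusted p under 0.05, 2 higher and 1 lower, beside 4.17% and 4.78% of all tested genes, were named after their values were seen. They were Trib3 at 0.84 (SE 0.36), Asns, asparagine synthetase, at 0.72 (SE 0.23) and Vegfa, a vascular growth factor gene, at -0.49 (SE 0.19).

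For the setting in which relatives of the Cebpz protein act, 23 nucleolar ribosome assembly genes were listed, 9 were tested and 0 passed by edgeR, with 0 at an unadjusted p under 0.05, a median of -0.12 and values from -0.28 to 0.10. The median was -0.02 without controls 2 and 4, and turned to 0.01 with at least 20 counts in 6 libraries. Without the low-count filter it was 0.02, where the median of the 2614 genes of the reported test stood at 0.14. Rrp1 had -0.25 (SE 0.15), nucleolin (Ncl) 0.02 (SE 0.18), nucleophosmin (Npm1) 0.10 (SE 0.18) and fibrillarin (Fbl) 0.01 (SE 0.22). Noc2l, Noc3l and Noc4l had 113, 13 and 21 counts in all and were below the filter.

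**Figure D5:**
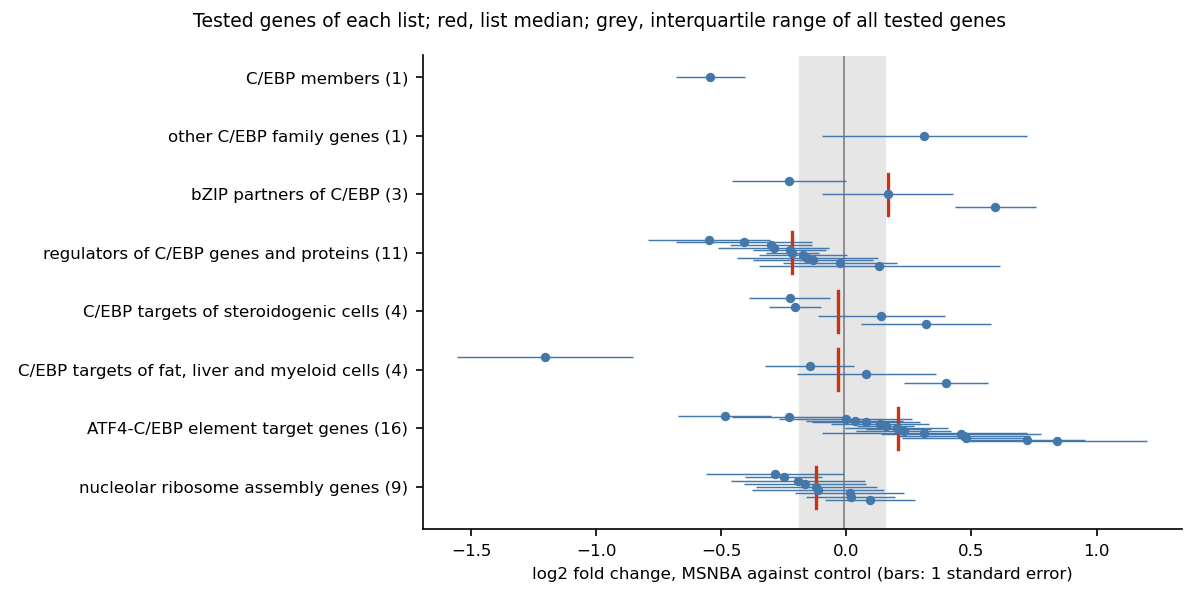
Log2 fold change, MSNBA against control, of the tested genes of each list, with 1 standard error as bars, the list median in red and, in grey, the interquartile range of all 2614 tested genes around their median of -0.0082. Cebpa, alone in the top line, lies at -0.54; regulators lie mostly left of the median and genes with ATF4-C/EBP elements mostly right of it.

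The genes most like Cebpa across the 12 libraries were sought among 1671 tested genes with at least 20 counts per library on average. The 3 highest Pearson correlations of log2 CPM were 0.868 for Fkbp8, 0.856 for Sh3glb2 and 0.855 for Fkbp4. Fkbp8 and Fkbp4 encode immunophilins, the second a cochaperone of steroid receptors, and Sh3glb2 an endophilin-like membrane protein. Fkbp4 ran from 1154 to 1324 normalized CPM in controls and from 962 to 1060 in MSNBA, without overlap, as did 0.421% of all tested genes in that direction. Likeness to Cebpa over both groups favours genes that separate them, so nothing is read from this. Within controls the correlations with Cebpa were 0.262, 0.65 and 0.441, and within MSNBA 0.911, 0.475 and 0.0264, each over 6 libraries. Of these 6 values, 5 were below the correlation of the same gene over all 12 libraries. The values of 1 library share its depth.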

How the data were processed

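PolyA RNA of 12 mLTC-1 libraries was measured. The authors deposited raw counts per gene symbol, with BWA 0.7.4.4 and the mm10 assembly listed in the submitters' processing notes. The table's name reads as unique RefSeq alignments counted by molecular identifier. Which program counted, and with what strand setting, is not given in the sources used here.

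Analyses used R 4.3.3, edgeR 4.0.16, limma 3.58.1 and DESeq2 1.42.0. Genes passing filterByExpr (minimum count 10) were scaled by TMM factors and tested across all genes by the robust quasi-likelihood test without a block, adjusted by Benjamini-Hochberg, at 0.05. The SE is the log2 fold change over the square root of F. Levels of genes below the filter are counts over full library totals, without TMM factors, a different scale from normalized CPM. The test was checked on simulated data. Symbols, positions and promoters came from RefSeq (GRCm38.p6), exon models from GENCODE M21.

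Members and gene lists were chosen with earlier results of these data known. Named genes are the 5 members, Cebpe and Ddit3, up to 4 most abundant tested genes per list and the 3 most like Cebpa, with exceptions marked. Same-number libraries correlated above 0.1 in 3 of 6 pairs (-0.23 to 0.48, over 1672 genes), so numbers were not taken as pairs. No pair of libraries held identical counts.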

Additional observations from a re-analysis of the deposited data

Results flagged for a closer look

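A library far from the other 5 of its group was found in 4 of 62 sets of values; about 3.1 would arise by chance. Cebpe measured 4.27 CPM in control 1, from 1 count, with 0 in the other controls. A lone count among libraries with 0 always meets this rule, so that flag carries no information. Prkaca was low in control 4, at 385 CPM against 695 CPM in the next control. Gsk3b was high in MSNBA 6, at 641 CPM against 434 CPM in the next MSNBA library, and Npm1 was low there, at 194 CPM against 301 CPM. Values of Cebpa, Cebpb, Cebpd, Cebpg and Cebpz held no lone library in either group.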

How the results depend on the processing

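Cebpa kept its sign and did not pass the threshold in any setting run. By edgeR, its log2 fold change was -0.55 with RLE factors (adjusted p = 0.093) and -0.54 with library size alone (adjusted p = 0.106). It was -0.55 with at least 20 counts in 6 libraries (adjusted p = 0.078). By DESeq2 it was -0.53 (adjusted p = 0.991) and by limma-voom -0.54 (adjusted p = 0.126). Without the low-count filter it was -0.39 (adjusted p = 0.602 by edgeR), where the median of the reported genes moved to 0.14. With the replicate block it was -0.54 (adjusted p = 0.0627), and the count of lower genes was 3, so the block changed no call of Cebpa. With 1 library left out it ran from -0.59 (without control 1) to -0.49 (without control 2), with adjusted p from 0.0689 to 0.274. In the reported test 0 genes were called higher and 2 lower. They were 8 and 7 without the low-count filter, 0 and 1 with at least 20 counts in 6 libraries, 4 and 3 without controls 2 and 4, and 0 lower genes with log2 depth in the model, by DESeq2 and by limma-voom, where 232, 394 and 259 genes had an unadjusted p under 0.05. With 1 library left out, higher genes ran from 0 to 1 (1 without control 2) and lower genes from 0 to 5: 5 without control 1, 4 without MSNBA 4, 2 without control 2, 1 without control 3 and 0 without each of the others. For the genes below the filter, leaving out 1 library gave log2 ratios from -0.71 to -0.38 for Cebpb, 0.14 to 0.41 for Cebpg, -0.24 to 0.45 for Cebpd and -0.27 to 0.32 for Cebpz. Other settings of the test could not be fitted for these 4 genes, apart from the fit without the filter and DESeq2. Log2 fold changes without the filter were -0.46, 0.41, 0.24 and 0.15 for Cebpb, Cebpg, Cebpd and Cebpz (SE 0.28, 0.30, 0.62 and 0.37). By DESeq2 they were -0.62, 0.24, 0.39 and -0.05 in that order (SE 0.33, 0.34, 0.77 and 0.48). Of 249 values under an alternative, 228 moved by less than the spread or kept their call. Most of the 21 that moved were counts of called genes, so these counts were less stable than the pooled figure shows. A count of 3 lower genes against 2 was taken as kept. So were changes of sign, as in Cebpd and Cebpz with 1 library left out. At a mean of 13.3 counts or fewer per library, depth limits what can be said of Cebpb, Cebpg, Cebpd and Cebpz.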
